A study of Mus musculus with 9 samples.

Results

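The 10 genes described here are common reference genes, transcripts that are often used to scale other measurements: Actb, Gapdh, B2m, Hprt, Ppia, Rpl13a, Tbp, Tuba1b, Hsp90ab1 and Nono. They were chosen as the probes that the array repeats on 20 spots and whose RefSeq accession names one of these genes, which gave 10 of 59709 probes outside the controls. Another 5 probes had 20 spots and name other genes. RNA came from the abdominal aorta of male mice and was measured on 9 single-colour Agilent arrays, 3 in each of 3 groups. The control group is titled wild type and was not treated. The CaPO4 group had an abdominal aortic aneurysm after calcium phosphate treatment, and the naringenin group had an aneurysm and received naringenin, a flavanone of citrus fruit. The design text states that 5 aortas were mixed in a group, but not whether an array held a pool, 1 animal or a repeat of 1 pool, so p-values may measure technical spread only. Strain, age, dose and time are not given in the sources used here.

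A reference gene is useful where its transcript keeps a fixed proportion of the RNA across the conditions compared, so that the ratio of a target to it reflects the target. No gene is a reference in every tissue, and a remodelled artery changes its cell makeup, matrix and metabolism. For this reason several reference genes with unrelated functions are usually compared with each other, and those whose mutual ratio stays constant are preferred. A constant ratio between a pair of genes does not show that either was constant, since both may have moved together. In a tissue sample, fewer cells of a type and less RNA per cell cannot be told apart.

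The members differ in the DNA around their start sites. The RefSeq promoter table (assembly GRCm38.p6; 250 bases before to 50 after the start) matched 8 of the 10 members, all but Actb and Hsp90ab1. The 250 bases before the start are shown for 4 genes, 5′ to 3′ on the gene's strand: Ppia and Tuba1b, whose ratio was among the 3 steadiest, and Rpl13a and Tbp, whose ratio was the most variable of all pairs. Capitals mark matches to 4 short motifs, searched on both strands. The TATA box was searched as the letters TATAAA and the GC box as GGGCGG. The motif of ETS factors was searched as CCGGAAG, and the remaining motif was CCAAT.
Ppia: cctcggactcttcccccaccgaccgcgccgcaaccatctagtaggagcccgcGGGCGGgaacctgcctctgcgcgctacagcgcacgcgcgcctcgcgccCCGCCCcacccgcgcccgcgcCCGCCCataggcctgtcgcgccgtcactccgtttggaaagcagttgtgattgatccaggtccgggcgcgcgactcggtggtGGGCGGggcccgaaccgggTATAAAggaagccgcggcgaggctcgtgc
Tuba1b: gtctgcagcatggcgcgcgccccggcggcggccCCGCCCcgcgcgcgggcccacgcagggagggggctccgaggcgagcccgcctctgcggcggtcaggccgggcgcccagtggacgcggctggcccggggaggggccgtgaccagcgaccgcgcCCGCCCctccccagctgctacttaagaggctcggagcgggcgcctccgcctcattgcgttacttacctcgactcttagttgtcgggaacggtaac
Rpl13a: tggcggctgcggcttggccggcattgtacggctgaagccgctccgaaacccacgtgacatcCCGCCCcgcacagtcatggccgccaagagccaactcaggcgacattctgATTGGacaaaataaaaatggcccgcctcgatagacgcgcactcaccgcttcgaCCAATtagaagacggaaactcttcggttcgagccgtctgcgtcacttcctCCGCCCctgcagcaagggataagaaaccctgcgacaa
Tbp: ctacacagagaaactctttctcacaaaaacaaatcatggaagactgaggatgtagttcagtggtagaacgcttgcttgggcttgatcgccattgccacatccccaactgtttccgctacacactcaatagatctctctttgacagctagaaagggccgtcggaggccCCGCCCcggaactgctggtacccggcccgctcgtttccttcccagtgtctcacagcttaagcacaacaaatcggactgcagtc
The stretches lie at chr11:6415617-6415866 (plus strand) for Ppia, chr15:98934391-98934640 (minus strand) for Tuba1b, chr7:45128746-45128995 (minus strand) for Rpl13a and chr17:15499638-15499887 (plus strand) for Tbp. In its window of 300 bases, Ppia had 4 GC boxes and a TATA box, 70.7% G or C and 43 CpG dinucleotides. Tuba1b had 2 GC boxes, 72.7% G or C and 39 CpG dinucleotides. Hprt, whose ratio to Tuba1b was the steadiest, is not shown. Its window had 3 GC boxes, 61% G or C and 22 CpG dinucleotides. A relation of these letters to the steadiness of ratios was not tested. Rpl13a had 2 CCAAT boxes on opposite strands and 2 GC boxes, with 60.3% G or C. Tbp had 1 GC box, 53.3% G or C and 17 CpG dinucleotides, against a median of 52.7% G or C over all 32851 windows. The matches did not overlap. No window of the 8 held CCGGAAG. Over all windows, TATAAA occurred in 13.6%, CCAAT in 37.4%, GGGCGG in 35.7% and CCGGAAG in 8.86%. A match is a description of letters and not a bound site, and the arrays did not measure these windows.

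Across arrays, the 75th percentile of the processed intensity was 119 to 120 for controls, 43.7 to 85.0 for CaPO4 arrays and 88.7 to 239 for naringenin arrays. The arrays were read in 3 scans: the 3 controls in scan 1, naringenin 3 in scan 2, and CaPO4 1 to 3 with naringenin 1 and 2 in scan 3. Control and scan 1 therefore cannot be told apart, and neither can naringenin 3 and scan 2. CaPO4 2 shared its scan with CaPO4 1 and 3. CaPO4 2 and naringenin 3 stood apart from the other arrays of their groups, and results are given with and without them. They were singled out in these same data, so counts and p-values without them are descriptions and not tests. Of the fixed marker lists for the labelled tissue and other cell types, no smooth muscle, endothelial, fibroblast, leukocyte, adipocyte or erythroid marker was named on the array, so the label could not be checked. The pancreatic gene Amy2a5, 1 of 5 acinar markers to be named, read 0.10 to 0.70 in the control group and 9.93 to 11.12 in the naringenin group, with 2.03, 11.05 and 2.04 for CaPO4 arrays 1, 2 and 3. Ccl21b and Ccl21c, 2 of 5 lymphatic and lymph node markers, had a summed level (log2 of their added values) of 6.15 to 6.32 in controls, 8.64 to 10.68 in CaPO4 and 9.58 to 10.58 in naringenin arrays. Fits with scan as a random block and within scan 3 are given below, but they cannot separate control from scan 1. The part of Amy2a5 and of the Ccl21 genes in the results below was not tested.

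All 10 members were well above background on all 9 arrays. Of their 1800 spots, 1798 were well above background, 85 were outlier spots and 1715 entered the values. Levels are the mean log2 intensity over the spots of a probe after subtraction of the array's 75th percentile, so 0 is that percentile. The SD between the spots of a probe on the same array ran from 0.0159 to 0.355 log2 over the 90 gene and array combinations, with a median of 0.0636, and it was under 0.1 in 74 of 90. The largest spot SDs were those of Tbp, with a median of 0.181 and values of 0.299, 0.355 and 0.263 on the controls. Tbp was also a dim probe, at an intensity of 46.8 to 214. The lowest median belonged to Gapdh, at 0.0418. With up to 20 spots averaged, the standard error of a level from spot noise was 0.00385 to 0.0793. Gapdh, Ppia and Rpl13a have many processed copies in the mouse genome, and Actb and Tuba1b have near-identical relatives, so a probe may also have bound their transcripts, which was not tested.

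**Figure D1:**
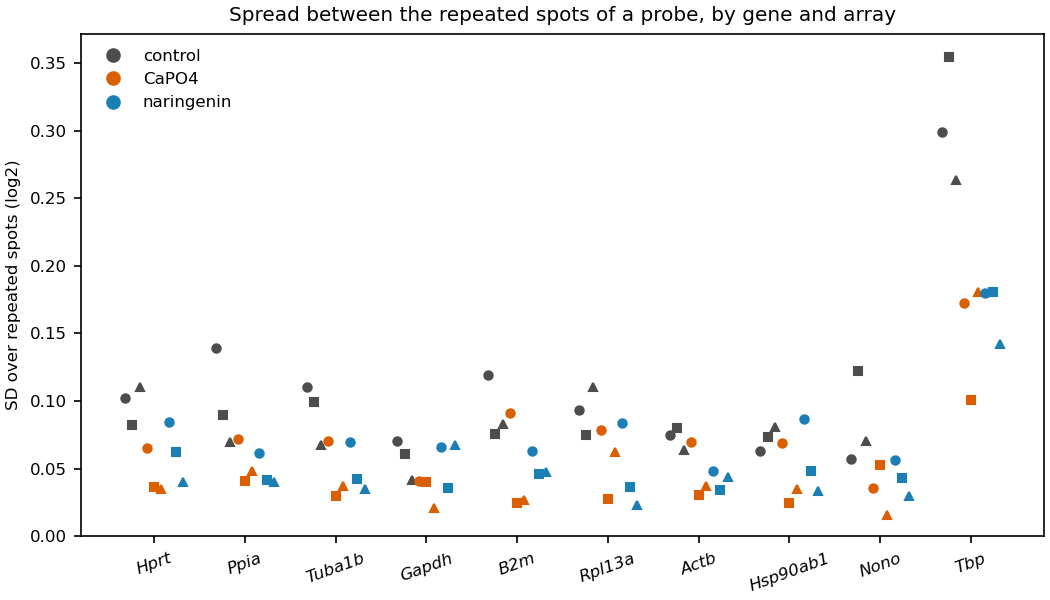
SD of log2 intensity over the repeated spots of a probe (vertical axis, log2 units) for each of the 10 reference genes (horizontal axis); each point is an array, coloured by group, with circles, squares and triangles for arrays 1, 2 and 3. Tbp has the widest spot spread, up to 0.355 on a control, while most points of the other genes lie under 0.1.

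Within groups, the members were closer on some pairs of arrays than on others. Between control arrays, the median absolute difference in level was 0.025 to 0.072 log2 over the 10 members, and 3 to 5 members differed by more than 2 standard errors of the spot noise. Between CaPO4 1 and 3 it was 0.10, with 9 of 10 members beyond that noise, and between naringenin 1 and 2 it was 0.051, with 7 of 10. CaPO4 2 differed from CaPO4 1 and 3 by medians of 1.54 and 1.51, and naringenin 3 from naringenin 1 and 2 by 1.01 and 0.93. All 10 members were beyond that noise in those 4 pairs. On naringenin 3 the 75th percentile was 239, against 88.7 and 94.0 on naringenin 1 and 2, and 84.1% of probes were well above background. Before scaling, no member was dimmer on naringenin 3 than on both of these arrays. Hsp90ab1 had intensities of 2825, 2898 and 3107 on naringenin 1, 2 and 3, and Rpl13a 2091, 2169 and 2142. Low levels on naringenin 3 are thus relative to its percentile. Ratios between members differed there by medians of 0.36 and 0.42. Spot noise is technical and does not cover differences between samples.

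Gapdh, the glycolytic enzyme glyceraldehyde-3-phosphate dehydrogenase, had levels of 7.91, 7.97 and 8.01 on the controls, 7.73, 9.72 and 7.93 on CaPO4, and 9.59, 9.58 and 8.24 on naringenin. All naringenin arrays lay above all controls, while only CaPO4 2 of the CaPO4 group did. Naringenin exceeded control by 1.17 ± 0.56 (SE of the limma fit, n = 3 arrays per group), an adjusted p of 0.109. Hprt, an enzyme of purine salvage, was at 6.01, 6.08 and 6.16 on the controls, 4.87, 6.79 and 4.92 on CaPO4, and 6.16, 6.05 and 5.20 on naringenin. CaPO4 1 and 3 were the lowest of the 9 and CaPO4 2 the highest, so that the group mean differed from control by -0.56 ± 0.52 with an adjusted p of 0.457.

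Actb, the cytoplasmic actin of the cell cortex, had levels of 7.59, 7.61 and 7.59 on the controls, 7.25, 8.18 and 7.39 on CaPO4, and 7.30, 7.27 and 6.57 on naringenin. The controls fell within a span far below that of the other groups, and all naringenin arrays were below them. The mean of CaPO4 differed from control by 0.013 ± 0.36, with a 95% confidence interval from -0.78 to 0.80, since CaPO4 2 lay above and the other two below. Tuba1b, an alpha-tubulin of the microtubules, was at 8.08, 8.12 and 8.14 on the controls, 7.01, 8.92 and 7.11 on CaPO4, and 8.49, 8.43 and 7.43 on naringenin. Its naringenin and control means differed by 0.00047 ± 0.52 (interval -1.16 to 1.16), and naringenin 1 and 2 lay above all controls while naringenin 3 lay below them.

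B2m, the light chain of class I major histocompatibility molecules, had levels of 8.87, 8.97 and 8.99 on the controls, 8.87, 10.40 and 8.93 on CaPO4, and 9.95, 9.91 and 8.69 on naringenin. CaPO4 1 and 3 were at the control level, and naringenin 3 was below it. Ppia, the prolyl isomerase cyclophilin A, was at 9.33, 9.36 and 9.29 on the controls, 8.30, 9.84 and 8.41 on CaPO4, and 9.31, 9.25 and 8.41 on naringenin. Naringenin 1 and 2 were close to the controls. Hsp90ab1, a cytosolic chaperone, was at 5.41, 5.40 and 5.44 on the controls, 4.94, 5.14 and 5.04 on CaPO4, and 4.99, 4.95 and 3.70 on naringenin. The controls were above both other groups without overlap. Relative to the array's percentile, Hsp90ab1 was the member with the least spread within CaPO4 (SD 0.10). This did not hold against the other members. Relative to the mean level of all members on the same array, Hsp90ab1 was at -0.86, -1.72 and -0.86 on CaPO4 1, 2 and 3. Naringenin differed from control by -0.87 ± 0.38 with an unadjusted p of 0.0445 and an adjusted p of 0.0838, and without naringenin 3 the difference was -0.45.

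Rpl13a, a protein of the large ribosomal subunit, had levels of 2.67, 2.80 and 2.79 on the controls, 3.26, 5.49 and 3.35 on CaPO4, and 4.56, 4.53 and 3.16 on naringenin. Every CaPO4 and every naringenin array lay above every control. The differences were 1.28 ± 0.61 for CaPO4 (adjusted p of 0.151) and 1.33 ± 0.61 for naringenin (adjusted p of 0.0959), so neither passed the threshold. Without CaPO4 2 the difference of CaPO4 from control was 0.55. Nono, a nuclear RNA- and DNA-binding protein of paraspeckles, was at 5.17, 5.11 and 5.08 on the controls, 5.39, 3.95 and 5.49 on CaPO4, and 3.90, 3.98 and 4.23 on naringenin. On CaPO4 2, Nono was low where Hprt, Ppia, Tuba1b, Gapdh, B2m, Rpl13a and Actb were at their highest. Naringenin differed from control by -1.08 ± 0.42, with an adjusted p of 0.0556.

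Tbp, the TATA-binding protein of the general transcription machinery, had levels of 0.83, 0.81 and 0.81 on the controls, 0.38, 0.16 and 0.39 on CaPO4, and -0.82, -1.004 and -1.57 on naringenin. The 3 groups did not overlap. Against control, Tbp fell by 1.95 ± 0.31 log2 in naringenin, 3.87-fold lower, with an adjusted p of 0.00141, and it stayed called in all 25 settings tried, at -2.26 to -1.25. Against CaPO4 it fell by 1.44 ± 0.31 with an adjusted p of 0.0443, and this call was less firm. It was lost in 8 of the 9 fits that left out an array (adjusted p from 0.00262 to 0.172 over the 9) and within scan 3, where the difference was -1.22 with an adjusted p of 0.442. CaPO4 differed from control by -0.51 ± 0.31, with an adjusted p of 0.248.

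**Figure D2:**
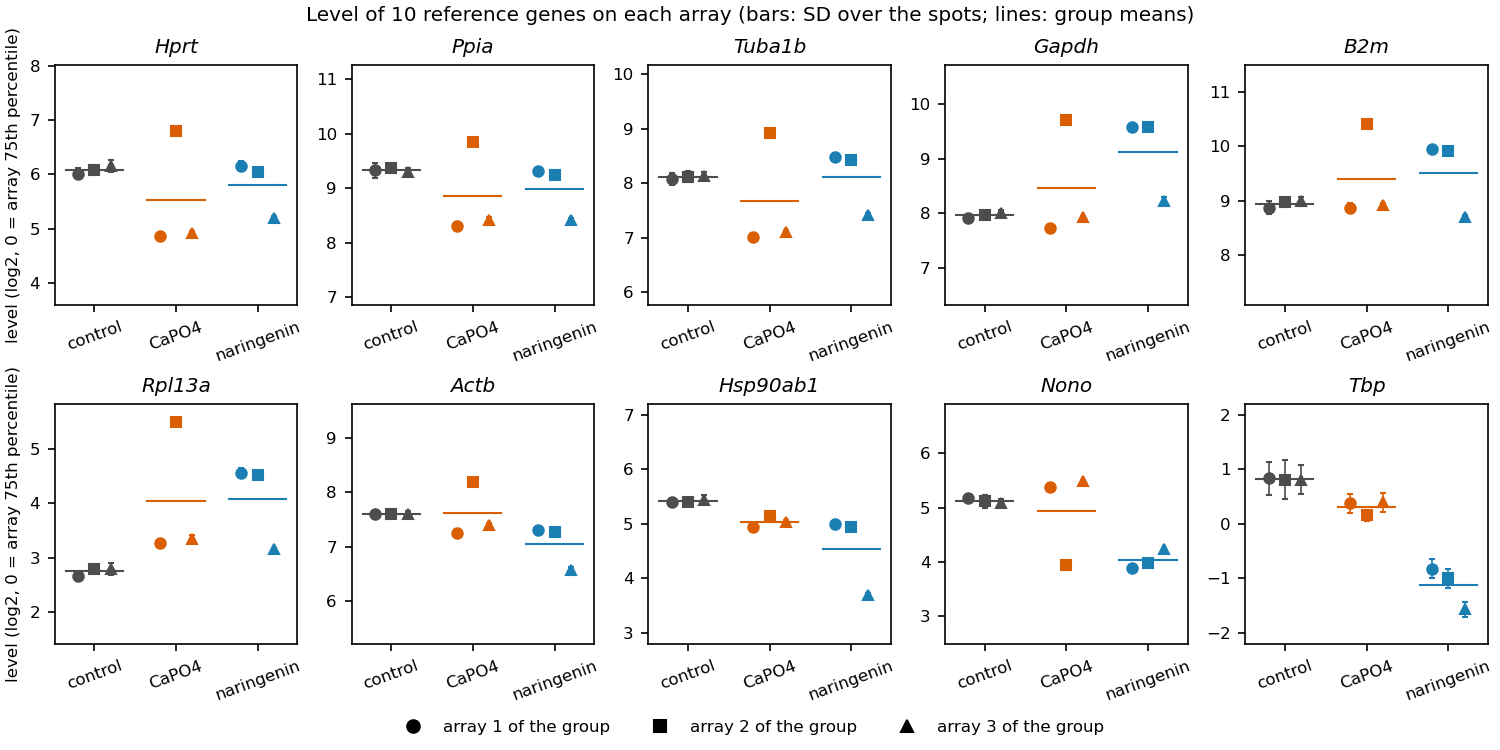
Level of each reference gene (vertical axis, log2 units, with 0 at the array's 75th percentile; every panel spans the same range) on the control, CaPO4 and naringenin arrays; symbols mark arrays 1 to 3, bars the SD over spots and lines the group means. CaPO4 2 (orange square) is the highest array for 7 genes and among the lowest for Nono, and Tbp is lower on all naringenin arrays.

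In total, limma called 0 of 10 members between CaPO4 and control, where 21.4% of all probes tested were called, and 0 members had an unadjusted p under 0.05. Levels did not overlap between those groups for 3 of 10 members (Rpl13a, Tbp and Hsp90ab1) against 48.5% of all probes. Between naringenin and CaPO4, 1 of 10 was called (Tbp) against 2.18% of all probes, and levels did not overlap for 1 of 10 against 24.2%. Between naringenin and control, 1 of 10 was called (Tbp) against 45.9%, 3 had an unadjusted p under 0.05, and levels did not overlap for 6 of 10 against 67.8%. The median change of the members was -0.28, 0.082 and -0.31 in the 3 comparisons, and that of all probes -0.040, 0.12 and 0.026. Both comparisons with control share the control arrays.

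These counts rest on arrays that stood apart. Without CaPO4 2, limma called 3, 5 and 4 of 10 members in the order CaPO4 against control, naringenin against CaPO4 and naringenin against control, where 31.5, 45.6 and 61.2% of all probes were called. The 3 calls against control were Hprt (-1.19), Ppia (-0.97) and Tuba1b (-1.06), all lower in CaPO4. Without CaPO4 2 and naringenin 3 together, 8 of 10 members were called in each comparison, against 53, 58.1 and 70% of all probes. That setting leaves 2 arrays in each treated group. In naringenin against control, Gapdh rose by 1.62, B2m by 0.99, Rpl13a by 1.79 and Tuba1b by 0.34. Nono (-1.18), Hsp90ab1 (-0.45), Actb (-0.31) and Tbp were called lower. Without naringenin 3 alone, 2 members were called in naringenin against control, where 43.4% of all probes were called.

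Ratios between members of the same array do not depend on a scaling that subtracts a constant from each array. Quantile normalization is not of that kind and can change them. A ratio's own size depends on the probes, so only its differences between arrays are read. Over the 9 arrays, the SD of the log2 ratio ran from 0.133 for Hprt over Tuba1b to 1.60 for Rpl13a over Tbp in the 45 pairs. Hprt over Tuba1b spanned 1.32-fold, at -2.07, -2.04 and -1.98 on the controls, -2.14, -2.12 and -2.19 on CaPO4, and -2.33, -2.38 and -2.23 on naringenin. The 3 groups did not overlap, in steps that stayed small. Hprt over Ppia had an SD of 0.142 and Ppia over Tuba1b of 0.200. Hprt, Ppia and Tuba1b thus kept their proportions to within 1.32-fold to 1.40-fold on arrays where the level of each spanned 2.92-fold to 3.80-fold. Their ratios were picked as the steadiest of the 45 in these same data. Such closeness was not particular to the members, since Tsnax, a gene outside them, had a ratio to Ppia with an SD of 0.109.

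**Figure D3:**
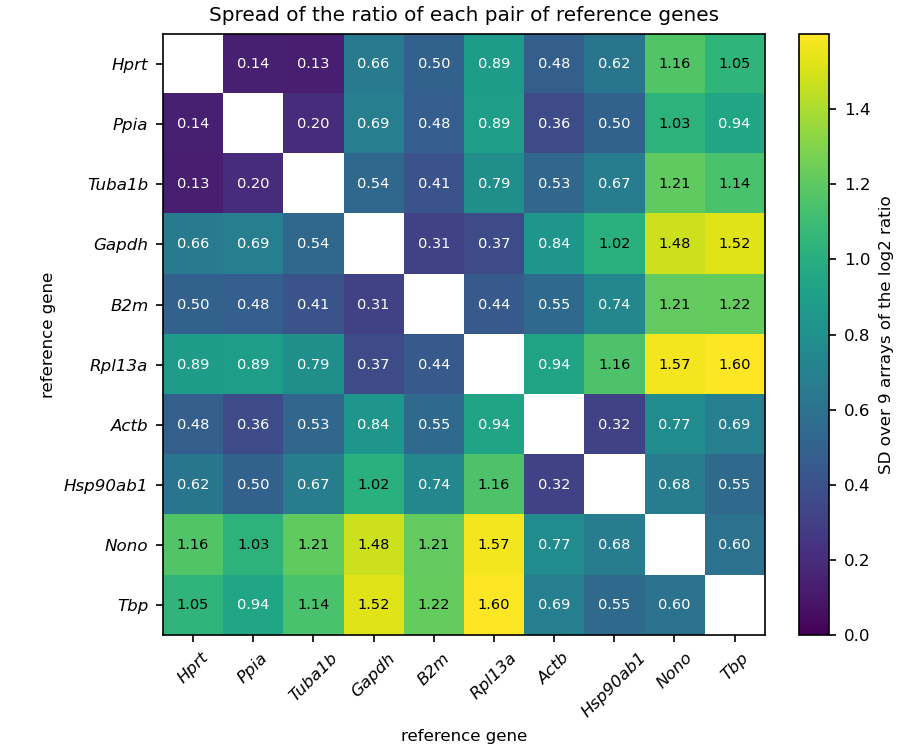
SD over the 9 arrays of the log2 ratio of each pair of reference genes (colour and printed value, log2 units), with genes ordered so that steady pairs are adjacent. Hprt, Ppia and Tuba1b form a dark block at 0.13 to 0.20, Gapdh, B2m and Rpl13a one at 0.31 to 0.44, and ratios of Nono or Tbp to Gapdh or Rpl13a are widest, at 1.48 to 1.60.

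Other members kept weaker company. Gapdh over B2m had an SD of 0.312, Actb over Hsp90ab1 of 0.317, Gapdh over Rpl13a of 0.372 and B2m over Rpl13a of 0.445. The widest range was that of Rpl13a over Nono, 16.5-fold: it was at -2.50, -2.31 and -2.29 on the controls, -2.12, 1.54 and -2.14 on CaPO4, and 0.66, 0.55 and -1.07 on naringenin. CaPO4 2 was the highest array and the other CaPO4 arrays were near the controls. Rpl13a over Tbp spanned 13.0-fold and Gapdh over Tbp 11.4-fold. Tbp and Nono, both low in naringenin, still had an SD of 0.597 between them.

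Between CaPO4 and control, limma called 10 of 45 ratios at an adjusted p under 0.05, where 21.4% of all probes and ratios were called. Gapdh, B2m and Rpl13a each rose against Hprt, Ppia and Tuba1b, which made 9 of the 10, and Rpl13a also rose against Hsp90ab1. Gapdh over Tuba1b was -0.17, -0.15 and -0.13 in the control arrays, against 0.73, 0.80 and 0.82 in CaPO4 arrays, a rise of 0.93 ± 0.28 with an adjusted p of 0.0381. CaPO4 2 did not stand apart in this ratio. Rpl13a over Tuba1b rose by 1.72 ± 0.29, 3.29-fold, with an adjusted p of 0.00517, from -5.42, -5.32 and -5.35 in the control arrays to -3.74, -3.42 and -3.76 in CaPO4 arrays. Groups did not overlap for 25 of 45 ratios against 48.5% of all probes. The ratios share members and are not independent.

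The number of ratios called moved with the arrays used. It was 21 without CaPO4 2, where 31.5% of all probes and ratios were called, and 34 without CaPO4 2 and naringenin 3 (53%). It was 3 without control 1, control 2 or control 3 (7.8, 7.45 and 9.44%), 5 without CaPO4 1 or CaPO4 3 (19.3 and 17%) and 4 without naringenin 1 or naringenin 2 (16.8 and 16.7%). With scan as a random block it was 3 (7.19%), and with the replicate number as a block 5 (20.1%). The share of all features called moved as well, and nothing particular to the members is read from these counts. Ratio values do not change where scaling subtracts a constant from each array, but the error of the fit is moderated by the spread of the whole table. The fitted SE of the steadiest ratios (0.27 for Hprt over Tuba1b) exceeds their own spread. Among Hprt, Ppia and Tuba1b no ratio was called between CaPO4 and control, with differences of -0.12 (interval -0.72 to 0.48) for Hprt over Tuba1b, -0.084 (-0.71 to 0.55) for Hprt over Ppia and -0.037 (-0.66 to 0.59) for Ppia over Tuba1b. Gapdh over B2m differed by 0.037 (-0.59 to 0.66).

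Between naringenin and control, 24 of 45 ratios were called, against 45.9% of all probes and ratios, and 40 of 45 did not overlap against 67.8% of probes. Tbp fell against 8 of the 9 other members, all but Nono. Gapdh rose against 7 members and Rpl13a against 7, in each case all but the other two of Gapdh, B2m and Rpl13a, and B2m rose against 5. Rpl13a over Tbp rose by 3.28 ± 0.59, 9.73-fold, with an adjusted p of 0.0024, at 1.83, 1.99 and 1.98 on the controls, 2.89, 5.33 and 2.96 on CaPO4, and 5.38, 5.53 and 4.73 on naringenin. Gapdh over Tbp rose by 3.12 ± 0.54, 8.69-fold, with an adjusted p of 0.00202. Gapdh over Actb spanned 3.98-fold over the arrays, and Actb over Gapdh fell by 1.72 ± 0.37 with an adjusted p of 0.00489. Actb over Ppia was not called, at -0.21 (interval -0.88 to 0.45). Leaving out 1 array gave 16 to 34 ratios, the most without CaPO4 2, while 32.6 to 61.2% of all probes and ratios were called.

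Between naringenin and CaPO4, limma called 0 of 45 ratios against 2.18% of all probes and ratios, 14 had an unadjusted p under 0.05, and 17 did not overlap against 24.2% of probes. Without CaPO4 2 the count was 28 of 45, with 45.6% of all probes called. Without CaPO4 2 and naringenin 3 it was 36, with 58.1% of all probes called. Gapdh over Tbp differed by 2.11 with an adjusted p of 0.0702, and rose by 2.82 with an adjusted p of 0.000184 without CaPO4 2. On CaPO4 2 this ratio was 9.56, against 7.36 and 7.54 on CaPO4 1 and 3 and 9.81 to 10.58 on naringenin. Leaving that array out thus widens the difference and narrows the spread, so the p-value and counts without it are no independent test. The 10 members placed CaPO4 2 nearer to naringenin than to its own group. Its ratios differed from those of CaPO4 1 and 3 by a median of 1.14 and 1.08 log2, and from those of naringenin 1, 2 and 3 by 0.40, 0.42 and 0.24, while CaPO4 1 and 3 differed from each other by 0.048. Amy2a5 moved in the same way, at 11.05 on CaPO4 2 and 2.03 and 2.04 on the other CaPO4 arrays, and its part was not tested.

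**Figure D4:**
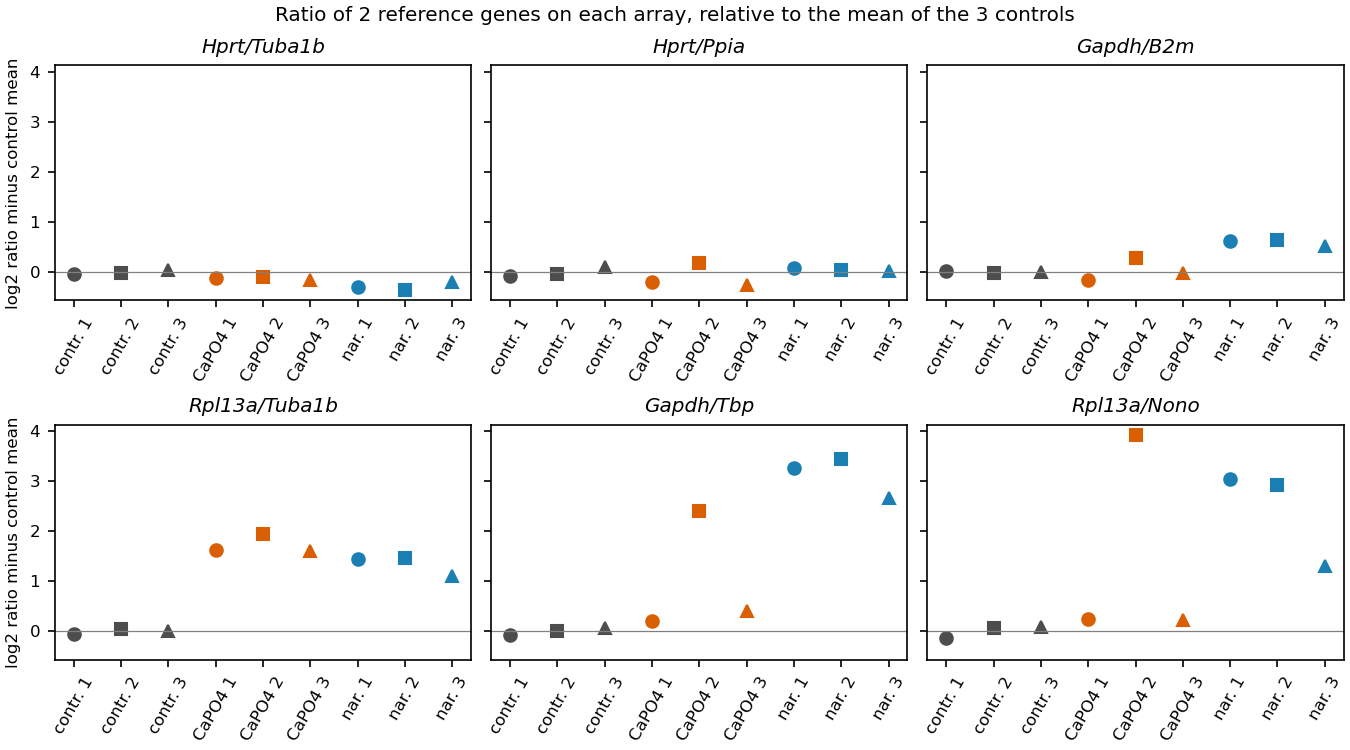
Log2 ratio of 6 pairs of reference genes on each of the 9 arrays (horizontal axis) minus the mean of the 3 controls (vertical axis, log2 units, shared by all panels). Hprt/Tuba1b and Hprt/Ppia stay near 0, Rpl13a/Tuba1b is raised on all CaPO4 and naringenin arrays, and Gapdh/Tbp and Rpl13a/Nono are raised on naringenin and CaPO4 2 but little on CaPO4 1 and 3.

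The stability measure M of a gene is the mean, over the other members, of the SD of their log2 ratio, so that a low M means a gene that kept pace with the rest. Over the 9 arrays M was 0.58 for Ppia, 0.61 for Actb, 0.63 for Tuba1b, 0.63 for Hprt, 0.65 for B2m and 0.69 for Hsp90ab1. It was 0.83 for Gapdh, 0.96 for Rpl13a, 1.03 for Tbp and 1.08 for Nono. Ppia was lowest in all 18 settings that give an M, Tbp and Nono stayed between the eighth and the tenth place, and Gapdh was in the seventh or the eighth. Rpl13a ranged from place 5 to place 10, and Actb and B2m from place 2 to place 6. The mean M was 0.769 over all arrays, 0.0554 within the controls, 0.769 within CaPO4 and 0.312 within naringenin. Within the controls every gene had an M under 0.1, from 0.041 for Tuba1b to 0.077 for Nono, while CaPO4 and naringenin each held an array that stood apart. The ratios of CaPO4 1 and 3 differed by a median of 0.048 and those of naringenin 1 and 2 by 0.053, against 0.044 to 0.088 between controls. Without CaPO4 2 and naringenin 3, M still ran from 0.59 to 1.03 over the remaining arrays, which differ between groups and, for the controls, in scan.

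When the member with the highest M was removed step by step, Nono, Tbp, Rpl13a and Gapdh went first, and Hprt and Tuba1b remained as the last pair. Without CaPO4 2 the same 4 genes went first, with Tbp before Nono, and Hprt and Ppia remained. Measured against the 75th percentile and not against each other, the order differed. The SD of the level over arrays was lowest for Actb, at 0.43. Among the 18743 probes well above background on all arrays and with a value on each, 13.2% had a lower SD. It was 0.53 for Hsp90ab1, 0.54 for Ppia, 0.62 for B2m and 0.65 for both Tuba1b and Hprt. It was highest for Tbp (0.90) and Rpl13a (0.99), and 74.7% of those probes varied less than Rpl13a. The median SD of those probes was 0.73.

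Scaling each array to a single member shifts every probe by that member's own level on the array. The values below thus restate the members' differences between groups as they would appear in the other probes. They also carry the member's spread between arrays of a group, on which the number of calls depends. With the 75th percentile, limma called 7992 probes between CaPO4 and control, 47% of them higher in CaPO4. Scaled to Hprt, 8001 were called and 95.5% were higher. Scaled to Rpl13a, 6083 were called and 6.46% were higher. Scaled to Gapdh, 1741 were called and 54.3% were higher. The median change of all probes moved from -0.040 with the percentile to 0.52 with Hprt and -1.32 with Rpl13a.

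The other comparisons moved as widely. Between naringenin and CaPO4, the percentile gave 817 calls, 37.5% of them higher. Scaled to Nono there were 130 calls, scaled to Actb 8087 with 96% higher, and scaled to Tbp 25916 with 99.5% higher. Between naringenin and control, the percentile gave 17116 calls with 49.4% higher, Tuba1b 10094 with 74.9% higher and Tbp 27395 with 96.5% higher. Gapdh gave 13467 calls of which 18.4% were higher, and Actb 17141 of which 79% were higher.

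**Figure D5:**
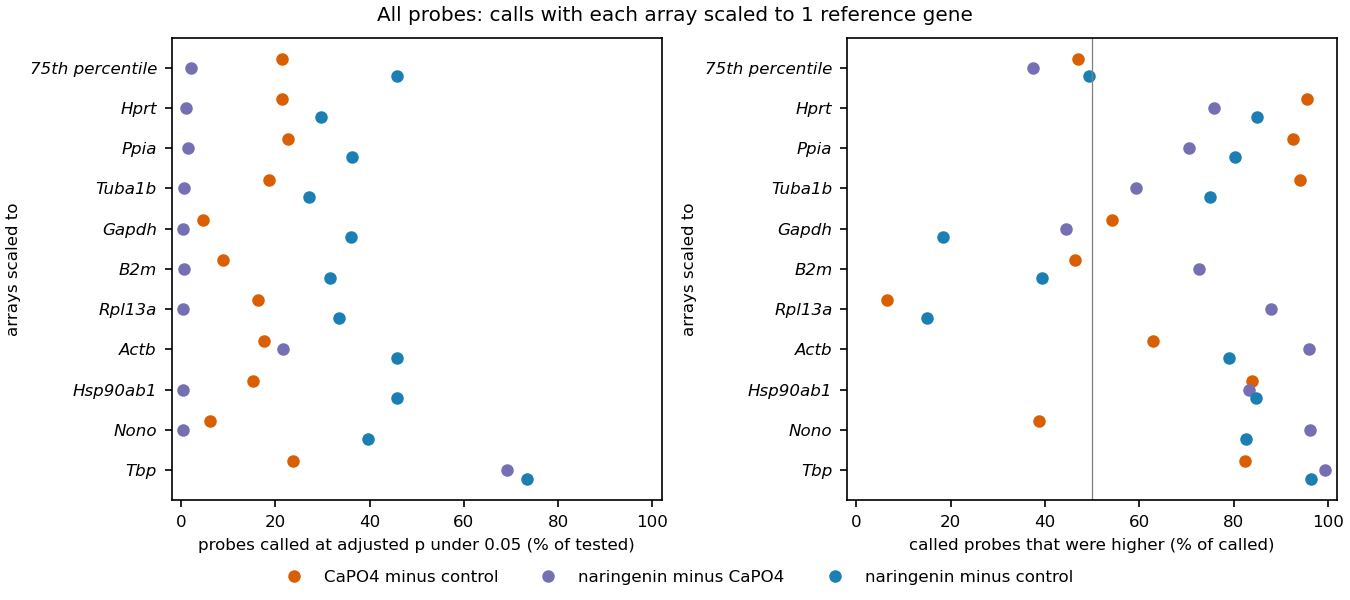
Percent of tested probes called by limma at an adjusted p under 0.05 (left) and percent of called probes that were higher in the first group named (right) with arrays scaled to the 75th percentile or to 1 reference gene (vertical axis), for the 3 comparisons. Scaled to Tbp, 69.1 and 73.4% of probes were called in the comparisons of naringenin, nearly all higher, and the share higher in CaPO4 against control runs from 6.46% with Rpl13a to 95.5% with Hprt.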

How the data were processed

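The authors deposited the processed intensity of each spot, with local background subtracted, from Feature Extraction (Agilent) 11.0.1.1, per the submitters' processing notes, on an array design that is annotated to mm9 per the file headers. No scaling between arrays had been applied, and the deposited table of all arrays was within 0.0999% of the scanner files. Per the labels' protocols, rRNA was removed and the Cy3-labelled cRNA was made with random primers. Control spots and outlier spots were left out, log2 values of a probe's spots were averaged, and the array's 75th percentile was subtracted. A probe was kept where at least 50% of its spots were well above background on at least 3 arrays, which kept 37498 of 59709. The 3 groups were fitted in 1 model with limma 3.58.1 in R 4.3.3 (two-sided moderated tests, Benjamini-Hochberg over all probes, call at adjusted p under 0.05). For ratios, the 45 log2 ratios were added to the table and fitted with it. The code was tested on simulated data. Figures were drawn with matplotlib.

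The members and lists were chosen with earlier results of these data known. Named genes were all 10 members, the other genes with 20 spots, the genes outside the members with the steadiest ratio to a member (at most 3 described), and Amy2a5. A list of 31 other common reference genes had 2 named on the array, Gusb and Tfrc. Of 123 RefSeq accessions, 116 matched the name table. The alternatives were other scalings, normexp background correction (offset 50), the filter, outlier spots, spot summaries, the deposited table, the replicate block, left-out arrays, scan, and a fit of the compared groups only. Same-numbered arrays did not all deviate together (correlations of -0.405, 0.431 and 0.449 in naringenin against CaPO4), so no pairing was assumed. The number of arrays limits the precision.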

Additional observations from a re-analysis of the deposited data

How the results depend on the processing

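Members called, out of 10, moved as follows from 0 in CaPO4 against control, 1 in naringenin against CaPO4 and 1 in naringenin against control. In CaPO4 against control the count was 2 with no scaling, 4 with quantile normalization, 1 with normexp and 8 without CaPO4 2 and naringenin 3, where 31.8, 24.4, 15.1 and 53% of all features were called. In naringenin against CaPO4 it was 0 with the 75th percentile of probes on all arrays, no scaling, normexp, no filter on dim probes, 1 spot per probe, the replicate block, a fit of the compared groups only and scan 3 alone (each with 1 or 2 members at an unadjusted p under 0.05 by limma), with 0 to 2.17% of all features called, and 8 without both arrays (58.1%). In naringenin against control it was 3 with that percentile (45.3%), with normexp (34.7%) and with outlier spots kept (46.2%), 5 with quantile normalization (49.2%), 4 with the compared groups only (58.6%) and 8 without both arrays (70%). Ratios called, out of 45, in CaPO4 against control were 4 with no scaling (31.8%), 3 with no filter (10.3%), 5 with the replicate block (20.1%), 3 with scan as a random block (7.19%) and 34 without both arrays (53%). In naringenin against CaPO4 they were 5 with quantile normalization (3.95%) and 36 without both arrays (58.1%), and in naringenin against control 15 with no scaling (25.6%) and 42 without both arrays (70%). Leaving out 1 array gave 0 to 3, 0 to 5 and 1 to 4 members, 3 to 21, 0 to 28 and 16 to 34 ratios, with 7.45 to 31.5%, 0.0987 to 45.6% and 32.6 to 61.2% of all features called, and a mean M of 0.739 to 0.792. Among members, 13 of the 30 differences changed sign somewhere, and only 2 of those alternative values were called, both in CaPO4 against control without both arrays (Actb, -0.27, and Nono, 0.32). The cause was not tested. In CaPO4 against control, Actb was -0.33 with the percentile of probes on all arrays, -1.10 unscaled, -0.60 by quantile, -0.47 by normexp and -0.061 with scan as a random block. Gapdh was -0.62 unscaled, -0.087 by quantile, -0.039 by normexp and -0.13 without both arrays, and B2m -0.65, -0.094, -0.030 and -0.042. Nono was 0.046 scaled to the median. In naringenin against CaPO4, scaling to the median gave -0.076 for B2m, -0.052 for Ppia and -0.14 for Rpl13a, no scaling gave 0.62 for Actb, 0.69 for Hsp90ab1 and 0.28 for Nono, and keeping outlier spots gave -0.051 for Rpl13a. In naringenin against control, Hprt was 0.016 without both arrays, and Tuba1b -0.31 with that percentile, -0.52 by quantile and -0.035 with scan as a random block. Ranges over the left-out arrays were, in CaPO4 against control, Actb (-0.27 to 0.19), B2m (-0.042 to 0.72), Gapdh (-0.13 to 0.86), Nono (-0.45 to 0.32); in naringenin against CaPO4, B2m (-0.15 to 0.62), Hprt (-0.059 to 0.90), Ppia (-0.14 to 0.63), Rpl13a (-0.34 to 0.78); and in naringenin against control, Hprt (-0.46 to 0.016), Tuba1b (-0.19 to 0.34). The block by replicate number is a hint from shared numbers only, and with it Tbp in naringenin against CaPO4 had an adjusted p of 0.0805. Tbp was dim, and with normexp its difference there was -0.82. The number of arrays limits every value.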

Other observations

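Of the other 5 genes with 20 spots per array, 4 passed the filter on dim probes and 3 were called in at least 1 comparison. Of all probes, 21.4% were called in CaPO4 against control, 2.18% in naringenin against CaPO4 and 45.9% in naringenin against control. Gusb, the lysosomal enzyme beta-glucuronidase, was at 1.65, 1.71 and 1.77 on the controls, 3.49, 4.47 and 3.60 on CaPO4, and 3.92, 3.88 and 2.73 on naringenin. It rose by 2.14 ± 0.41 (SE, n = 3) in CaPO4 against control, 4.40-fold, with a limma adjusted p of 0.00857, and by 1.80 ± 0.41 in naringenin against control with an adjusted p of 0.0067. Gk, a glycerol kinase, fell by 2.15 ± 0.58 in naringenin against control (adjusted p of 0.0132), and G6pd2, a glucose-6-phosphate dehydrogenase, fell by 1.92 ± 0.48 (adjusted p of 0.00949). The spots of Gk disagreed widely on the controls, with SDs of 0.98, 1.13 and 1.04, against 0.21, 0.22 and 0.11 on naringenin. Its control level is therefore uncertain. For G6pd2 the spot SD was 0.56 on control 1. Tfrc, the transferrin receptor, was called in no comparison at an adjusted p under 0.05 (0.922, 0.393 and 0.341), and Ldhal6b did not pass the filter. Gusb and Tfrc are used as reference genes too.

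The search covered 59 RefSeq-named genes outside the members, well above background and with a value on each array. Among them, the steadiest ratio to a member was that of Tsnax to Ppia, with an SD of 0.109 log2 over the 9 arrays. Hmgcs1, an enzyme of cholesterol synthesis, followed with Hprt at 0.114, and Ccdc82 with B2m at 0.161. The SDs for Tsnax and Hmgcs1 were below the 0.133 of Hprt over Tuba1b, the steadiest pair of members, though more pairs were searched here. These are descriptions over arrays that share scaling, with no test.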
